A study of Mus musculus with 36 samples.

Results

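The regions described here are the CLOCK:BMAL1 peaks that lie in gene bodies, 1623 of the 3217 peaks (50.5%) that the authors list for mouse liver. They were chosen by the deposited label of genomic location alone, with no use of the H2A.Z signal. Of these peaks, 1412 (87.0%) carry an intron label, and the other 211 (13.0%) are labelled as gene body with no further word. The sources used here do not say what the latter label covers.

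The measurement was H2A.Z in liver chromatin, digested with micrococcal nuclease and immunoprecipitated as single nucleosomes. Livers came from C57BL/6 mice of 3 to 6 months, wild type (WT) or Bmal1-/- (BM), which lack the BMAL1 subunit. Lights were on for 12 h and off for 12 h. Sampling began at ZT2 (zeitgeber time, in hours from lights on) and went on in steps of 4 h to give 6 times. The WT group has 24 libraries, 4 at each time, from the series numbered 11, 12, 25 and 26. The BM group has 6 libraries, 1 at each time, all from series 5. The labels part them into a first set of samples (series 11, 12 and 5) and a second set (series 25 and 26). With 1 BM series, an effect of series cannot be told apart from one of genotype. The labels do not say which libraries came from separate mice, so each p-value measures only the spread between these libraries, which may be technical.

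CLOCK and BMAL1 form the activating dimer of the circadian clock. The dimer binds E-box elements in DNA and activates its own repressors, the Per and Cry genes, along with many genes of liver metabolism. H2A.Z is a variant of histone H2A that chromatin remodellers exchange into nucleosomes, mostly beside transcription start sites and at enhancers. Micrococcal nuclease cuts the linker DNA and leaves the DNA that a nucleosome protects. A profile of such fragments around a bound site can thus show flanking nucleosomes as shoulders, and a site with fewer recovered H2A.Z fragments as a dip between them. Sites of a factor inside a gene body, away from the start site, are often intronic enhancers.

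Each library gave 1 averaged profile over the 1623 peaks, with 299 positions across windows of 3 kb. The values are in the authors' scaled units and their read depth is unknown. They hold no gene-level values, so neither the tissue nor the knockout was checked against a marker gene. No pair of libraries held identical profiles. WT series 26 at ZT14 stood apart in its flank, the outermost 25 positions on each side, with a signal of 13.6, while the other WT libraries lay between 7.89 and 10.1.

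H2A.Z formed shoulders on both sides of the gene-body sites in both genotypes. The mean WT profile rose from 9.16 at the left edge of the window to 23.95 at -200 bp, fell to 15.7 at -20 bp and rose again to 23.5 at 170 bp. On the outer slopes it was midway between its maximum and the flank at -420 bp and 380 bp. The BM shoulders had their maxima at the same positions, 15.55 at -200 bp and 15.2 at 170 bp, and the BM minimum of 12.4 also lay at -20 bp. The dip, shoulder minus centre, was 7.12 ± 2.56 units deep in WT (SD, n = 24) and 2.61 ± 1.31 in BM (SD, n = 6). The shallowest dip was that of BM at ZT22, 0.592 units.

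**Figure D1:**
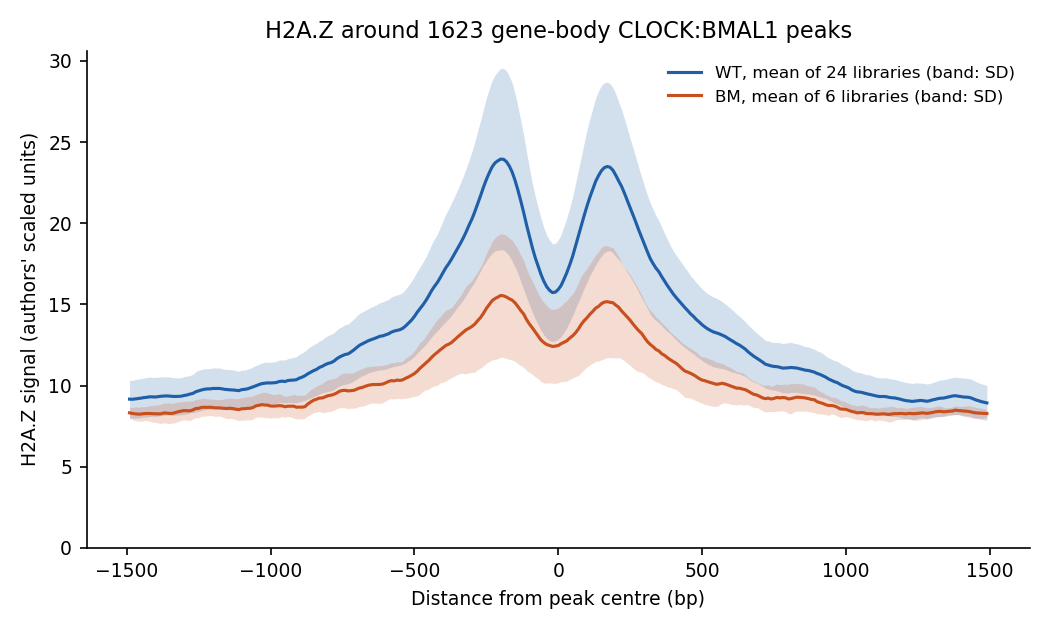
Mean H2A.Z signal in the authors' scaled units (y) against distance from the peak centre in bp (x) over 1623 gene-body peaks, for 24 WT libraries (blue) and 6 BM libraries (orange), with bands of 1 SD. Shoulders at -200 bp and 170 bp stand at 23.95 and 23.5 in WT and at 15.55 and 15.2 in BM, and the minimum lies at -20 bp in both.

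Shoulder height was measured as enrichment, the mean signal over the stretches 150 to 230 bp left and right of the centre, divided by the flank of the same profile. This ratio does not depend on a single factor that scales a whole library, while an added or subtracted background would change it. At ZT2, WT series 11, 12, 25 and 26 had an enrichment of 2.64, 2.43, 3.25 and 2.48, and BM had 2.16. At ZT6, the WT values were 2.34, 2.55, 3.22 and 2.96, and BM had 1.73. At ZT10, the WT values were 2.06, 2.46, 3.00 and 2.89, and BM had 1.46. At these 3 times, in the light phase, the BM library was below every WT library, by wider margins at ZT6 and ZT10 than at ZT2. In the dark phase, WT at ZT14 had 2.52, 2.46, 2.69 and 2.22, and BM had 2.07. At ZT18, the WT values were 2.23, 2.13, 2.81 and 2.43, and BM had 2.07. At ZT22, the WT values were 2.01, 1.86, 2.61 and 1.66, and BM had 1.33. BM was again lowest at each time, with the closest approach at ZT18, and ZT22 was the time of lowest enrichment in both genotypes.

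Over all times the enrichment was 2.50 ± 0.404 in WT (SD, n = 24) and 1.80 ± 0.353 in BM (SD, n = 6). The log2 difference, BM minus WT, was -0.47 (SE 0.10), which is 28.0% lower in BM. It passed an exact two-sided permutation of genotype within time (p = 6.4e-05, the smallest possible, adjusted p = 0.000683 over 32 tests). Against WT series 11 and 12, the first set, the log2 difference was -0.37 (SE 0.07, exact permutation p = 0.00137, as small as 2 WT series allow). The second set has no BM library among those used. With each series reduced to its mean, 5 values remain, and their exact permutation p of 0.2 is the lowest that such a test can reach. By time, the log2 difference ran from -0.20 at ZT18 to -0.82 at ZT10.

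Over the whole window the mean signal ran from 9.51 to 18.4 in WT (median 13.3) and from 8.93 to 11.95 in BM (median 10.3). The ranges overlap, but at each time BM was below all 4 WT libraries (log2 difference -0.36, SE 0.10, adjusted exact permutation p = 0.00298). With series 11 and 12 as the only WT series, this difference was smaller, -0.22 (SE 0.05, exact permutation p = 0.00137). The flank differed less. Its signal was 9.26 ± 1.13 in WT (SD, n = 24) and 8.35 ± 0.369 in BM (SD, n = 6), a log2 difference of -0.14 (SE 0.07, exact permutation p = 0.0417, adjusted p = 0.0758), which fails the correction. Without WT series 26 at ZT14 this difference was -0.12 and passed (adjusted exact permutation p = 0.0286). Without WT series 11 it was -0.17 and also passed (adjusted exact permutation p = 0.0395). At 4 of 6 times BM was below all 4 WT libraries. Against series 11 and 12 alone the log2 difference in the flank was -0.05 (exact permutation p = 0.0576).

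Centre fill is the part of the shoulder's height above the flank that is still present within 30 bp of the centre, so that 0 is a dip down to the flank and 1 is no dip. At ZT2, WT series 11, 12, 25 and 26 had a centre fill of 0.448, 0.525, 0.458 and 0.452, and BM had 0.602. At ZT6, the WT values were 0.376, 0.401, 0.456 and 0.465, and BM had 0.481. At ZT10, the WT values were 0.360, 0.483, 0.474 and 0.450, and BM had 0.602. The groups did not overlap at any of these 3 times, and at ZT6 the BM library lay just above the highest WT library. At ZT14, the WT values were 0.527, 0.504, 0.579 and 0.569, and BM had 0.630. At ZT18, the WT values were 0.499, 0.646, 0.506 and 0.585, and BM had 0.661. At ZT22, the WT values were 0.602, 0.567, 0.484 and 0.422, and BM had 0.779. Within each WT series the values of the dark phase were above those at ZT6 and ZT10, with the exception of series 26 at ZT22, and BM stayed highest at each time.

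The BM libraries exceeded WT in centre fill by 0.133 (SE 0.0266), from 0.0567 at ZT6 to 0.260 at ZT22. An exact permutation within time gave p = 6.4e-05, the smallest possible, with an adjusted p of 0.000683. The difference was 0.131 within the first set of samples (SE 0.0258, exact permutation p = 0.00137). It was between 0.107 and 0.148 over 11 fits that each left out 1 WT series, 1 BM library or WT series 26 at ZT14. Over the series means the exact permutation p was again 0.2.

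**Figure D2:**
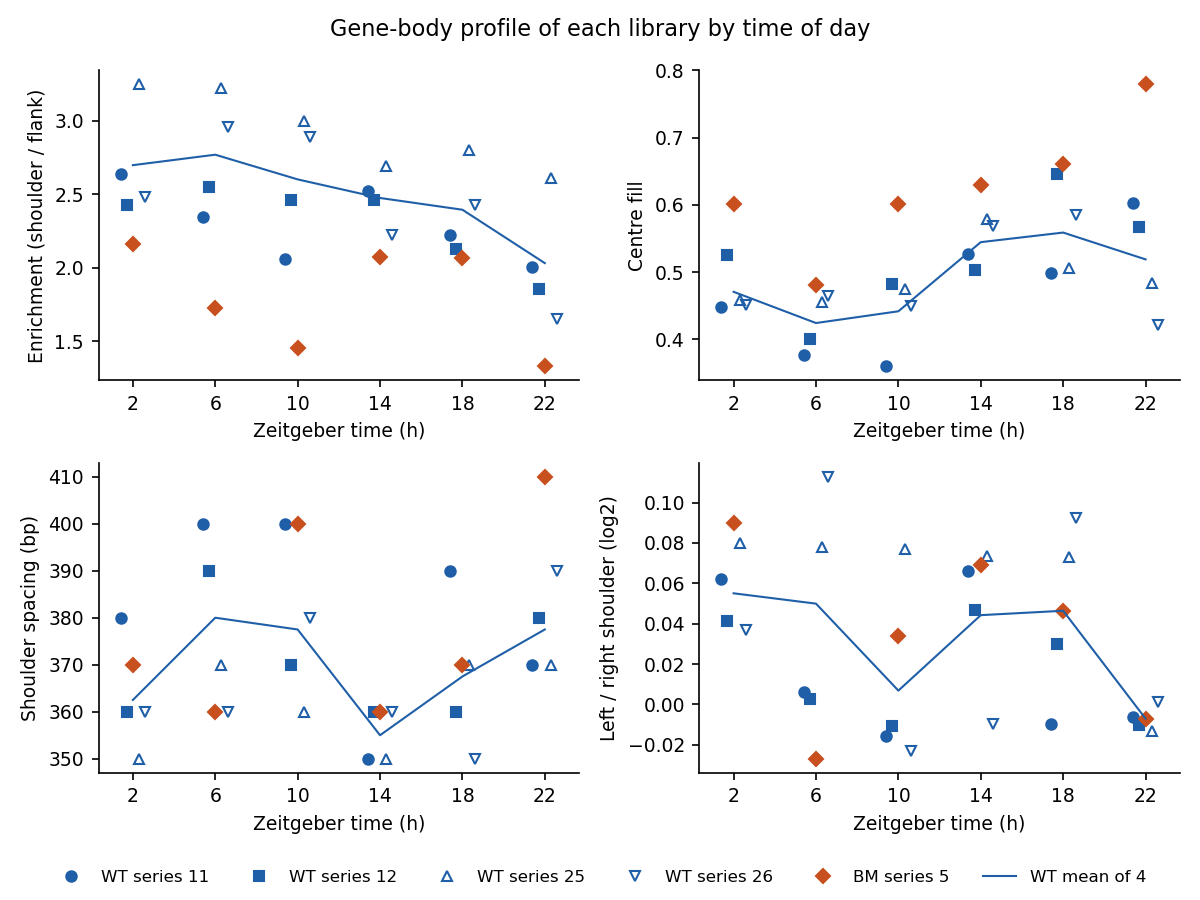
Enrichment, centre fill, spacing of the shoulders in bp and log2 ratio of left to right shoulder (y, 4 panels) against zeitgeber time in h (x). Each symbol is 1 library, orange for BM and blue for WT by series, and the line is the mean of 4 WT libraries. BM is lowest in enrichment and highest in centre fill at 6 of 6 times, while in spacing and side ratio it lies among the WT libraries at most times.

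The geometry of the profile differed less between genotypes than its height. In WT the maxima on the left and right were 370 bp apart (SD 15.6, n = 24, from 350 to 400 bp), and in BM 378 bp (SD 21.4, n = 6, from 360 to 410 bp). The difference of 8.33 bp (SE 6.67) did not pass an exact permutation within time (p = 0.289). Positions are 10 bp apart, and the difference was 14.58 bp with no running mean and -2.08 bp with a running mean of 9 positions. The dip was 187.7 ± 9.29 bp wide in WT (SD, n = 24) and 192.7 ± 14.7 bp in BM (SD, n = 6), measured midway up its walls. This difference of 5.01 bp (SE 4.51, exact permutation p = 0.279) rests on BM at ZT22, whose dip was 221.8 bp wide. Without that library it was -0.236 bp.

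The slopes outside the shoulders were described by the outer fill, which takes the signal from 320 to 450 bp in place of the centre. It was 0.540 ± 0.0216 in WT (SD, n = 24) and 0.556 ± 0.0279 in BM (SD, n = 6), a difference of 0.0167 (SE 0.00994, exact permutation p = 0.111). The left shoulder exceeded the right one by 2.33% ± 3.00 in WT (SD, n = 24) and by 2.44% ± 3.15 in BM (SD, n = 6). On the log2 scale these side ratios differed by 0.00157 (SE 0.0176, exact permutation p = 0.93). The side ratio varied between libraries of 1 genotype, from -1.60% in WT series 26 at ZT10 to 8.13% in the same series at ZT6. Whether left and right follow the strand of the gene is not given in the sources used here.

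Position by position, BM lay below WT along most of the gene-body profile. In a limma fit over the 1196 positions of 4 deposited peak sets (all peaks, gene body, TSS and intergenic beyond 10 kb), 240 of 299 gene-body positions were lower in BM at an adjusted p under 0.05 and 0 were higher. Over all positions tested 95.1% were lower in BM, so the share at gene bodies, 80.3%, was below that of the whole table, a difference that was not tested. The set of all peaks in that background holds the gene-body peaks too. Of the lowered positions, 234 ran without a break from -1220 to 1110 bp, and the other 6 lay between -1410 and -1340 bp. The largest log2 difference was -0.63 (SE 0.12) at 180 bp, on the right shoulder (adjusted p = 0.000251, limma). At the minimum of the profile, -20 bp, it was -0.34 (SE 0.11), and it was weakest at the right edge, -0.10 at 1490 bp. Neighbouring positions share fragments, so these are not counts of independent sites.

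The same fit on each profile divided by its own flank removed any factor that scales a whole library. BM was then lower at 207 of 299 gene-body positions (69.2%), against a background of 74.8% over the 4 sets, and higher at 0. The lowered stretch ran from -1020 to 1040 bp. The log2 difference was -0.48 (SE 0.10) at -200 bp, -0.49 (SE 0.09) at 180 bp and -0.20 (SE 0.07) at -20 bp. The curve therefore had the form of the profile itself, with the largest lowering on both shoulders and less between them. With only the first set of samples, the positions called were 202 as deposited and 197 relative to the flank.

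**Figure D3:**
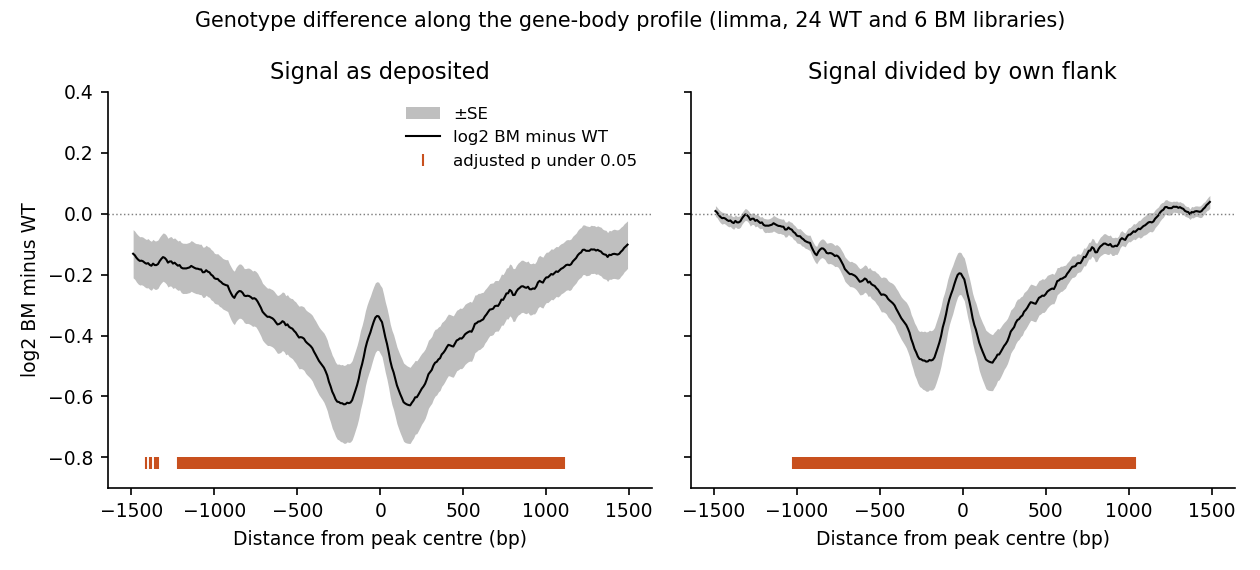
Log2 difference of BM minus WT (y, black line, grey band of 1 SE) against distance from the peak centre in bp (x), from limma on 24 WT and 6 BM libraries, as deposited (left) and after division by the flank of the same profile (right). Orange marks show positions at an adjusted p under 0.05, and both curves are lowest at 180 bp, -0.63 on the left and -0.49 on the right.

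The sampling over the day asks whether the profile follows the light:dark cycle. Of 8 measures of the WT gene-body profile, centre fill alone passed a cosinor test with a period of 24 h. Its WT mean went from 0.424 ± 0.0427 at ZT6, the lowest, to 0.559 ± 0.0700 at ZT18, the highest (SD, n = 4 each). The fitted amplitude was 0.0700 (SE 0.0155) with its peak at ZT18.1 (permutation p = 0.00072, adjusted p = 0.00768). The first set of samples alone gave 0.101 (permutation p = 0.00349) and the second alone 0.0597 (permutation p = 0.0135), with peaks at ZT19.5 and ZT15.4, whose gap in time was not tested. Neither set passed after adjustment (adjusted permutation p = 0.0617 and 0.108). Without series 11 the amplitude was 0.0636 (adjusted permutation p = 0.0566) and without series 12 it was 0.0632 (adjusted permutation p = 0.0914).

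In the levels behind this ratio, the shoulder differed more than the centre between ZT6 and ZT18, but not between ZT6 and ZT14. From ZT6 to ZT18 the mean WT shoulder went from 25.7 ± 6.27 to 22.01 ± 4.17 units (SD, n = 4 each), while the centre stood at 16.4 ± 3.88 and 16.2 ± 2.24 units. At ZT14 the shoulder stood at 25.2 ± 3.77 units, near that at ZT6, and the centre at 18.5 ± 3.44 units, above it (SD, n = 4). At ZT22 shoulder and centre were at their lowest, 17.8 ± 5.44 and 13.4 ± 3.08 units (SD, n = 4). These levels rest on the authors' scaling, overlap between times and were not tested singly.

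The enrichment had its highest WT mean at ZT6, 2.77 ± 0.395, and its lowest at ZT22, 2.03 ± 0.412 (SD, n = 4 each). A cosinor fit to its log2 gave 0.16 as amplitude (SE 0.06), peaking at ZT7.7, and did not pass (permutation p = 0.0532, adjusted p = 0.213). The shoulder spacing moved between 355 bp at ZT14 and 380 bp at ZT6 as WT means, an amplitude of 5.83 bp (SE 4.54, permutation p = 0.468). Window signal, flank, dip width, outer fill and side ratio had adjusted permutation p-values between 0.726 and 0.969. At ZT22 the left and right shoulders of WT were closest to each other, with a left excess of -0.488% ± 0.423 (SD, n = 4), and the side ratio gave no 24 h rhythm (permutation p = 0.911).

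For BM, with 6 libraries, the fit to centre fill gave 0.104 (SE 0.0404), peaking at ZT19.6 (exact permutation p = 0.133, smallest possible 0.0167). The difference of the BM and WT rhythms in centre fill was 0.0486 (exact permutation p = 0.652, adjusted p = 0.884), so a loss of the rhythm in BM was not detected, nor was it shown to be kept.

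No single position of the WT gene-body profile passed the limma test of a 24 h rhythm, as deposited or relative to the flank, and 0.0% passed over the 4 sets. As deposited, 0 positions had an unadjusted p under 0.05, and relative to the flank 68 had. The share over the other sets was not counted, so the 68 are not a result about gene bodies. Of these 68 positions, 22 ran from -400 to -190 bp and 20 from 160 to 350 bp, on the shoulders and the slopes outside them. Another 14 ran from -1060 to -930 bp, 7 from 410 to 470 bp and 4 from 510 to 540 bp, and 1 lay at 1260 bp. The largest amplitude relative to the flank was 0.17 on the log2 scale at -220 bp with a peak at ZT7.5 (adjusted p = 0.114, limma). Positions between the shoulders were not among them.

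**Figure D4:**
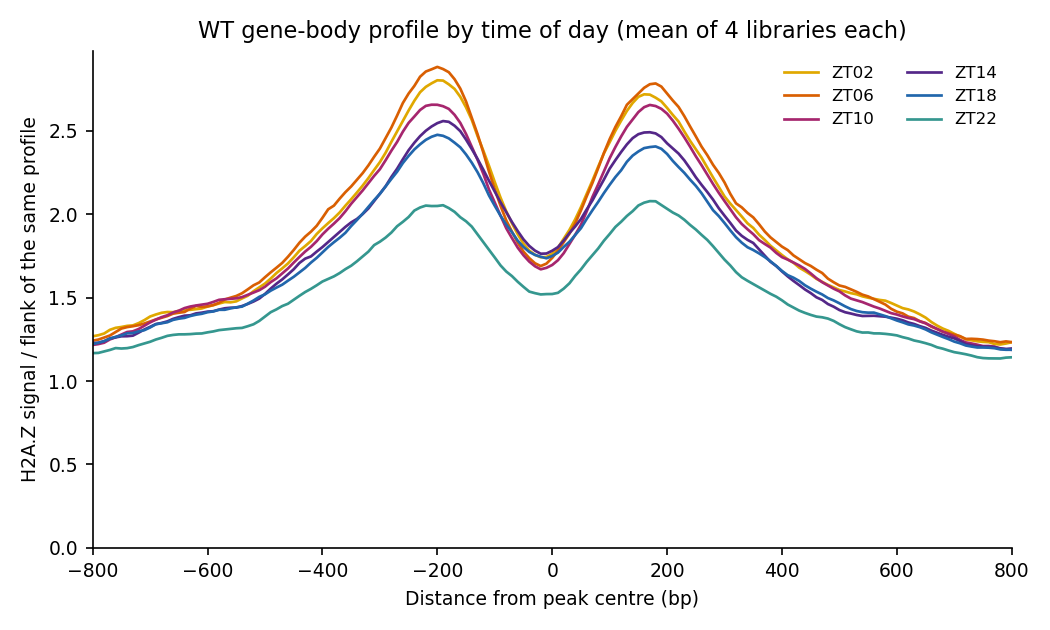
WT H2A.Z signal divided by the flank of the same profile (y) against distance from the peak centre in bp (x), with 1 line per zeitgeber time as the mean of 4 libraries. The shoulders are highest at ZT6 and lowest at ZT22, and the centre varies less than the shoulders.

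Gene-body peaks were compared with peaks at transcription start sites (TSS, 583 peaks) and with intergenic peaks beyond 10 kb of a gene (717 peaks) within each library. Their shoulders stood closer together than those of TSS peaks, 370 against 430 bp as WT means. The difference of -60.4 bp ± 24.2 (SD, n = 24) was negative in each of the 24 libraries (permutation p = 1e-05 over signs, the lowest that 100000 draws can give, adjusted p = 1.8e-05). The slopes outside the shoulders were also lower. Outer fill was 0.540 at gene bodies and 0.798 at TSS peaks, a difference of -0.258 ± 0.0265 (SD) in 24 of 24 WT libraries (permutation p = 1e-05, adjusted p = 1.8e-05). In BM the same differences were -68.3 bp and -0.252, negative in each of the 6. The exact permutation p over signs was 0.0312 for each, the lowest that 6 libraries can give (adjusted p = 0.0556). Windows of 41 gene-body peaks (2.53%) overlapped the window of a TSS peak.

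The sides were also unlike. At gene bodies the left shoulder was the higher by 0.03 on the log2 scale in WT, while at TSS peaks the ratio was -0.04. The difference of 0.07 (SD 0.05) was positive in 23 of 24 WT libraries (permutation p = 1e-05, adjusted p = 1.8e-05). Against intergenic peaks the side ratio differed by 0.05 (SD 0.04), positive in 22 of 24 WT libraries (permutation p = 2e-05, adjusted p = 3.2e-05). In BM these differences were positive in 4 of 6 and 3 of 6 libraries (exact sign permutation p = 0.281 and 0.594).

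Against intergenic peaks beyond 10 kb, 7 of the 8 measures differed in WT at an adjusted p under 0.05, by smaller amounts than against TSS peaks in outer fill and enrichment. The exception was the shoulder spacing. Shoulder spacing was 370 bp at gene bodies and 375 bp at intergenic peaks, a difference of -5.42 bp ± 14.4 (SD, n = 24, permutation p = 0.106). Centre fill was lower at gene bodies, with a difference of -0.0276 in 20 of 24 WT libraries (permutation p = 0.00079, adjusted p = 0.000972). The dip was narrower at gene bodies, with a difference of -6.46 bp in 20 of 24 WT libraries (permutation p = 0.00242, adjusted p = 0.00277). Enrichment was lower at gene bodies in 24 of 24 WT libraries, with a log2 difference of -0.15 (permutation p = 1e-05, adjusted p = 1.8e-05). Outer fill was lower in 19 of 24, with a difference of -0.0242 (permutation p = 0.00014, adjusted p = 0.000204).

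Some of these contrasts differed between genotypes. Window and flank signal at gene bodies were lower than at intergenic peaks by less in BM, with log2 changes of 0.17 (SE 0.04) and 0.19 (SE 0.05, adjusted exact permutation p = 0.00444 each). In BM the log2 enrichment at gene bodies minus that at intergenic peaks was -0.22, a change of -0.07 from WT (SE 0.03, exact permutation p = 0.00314, adjusted p = 0.01004). Without WT series 25 the change was -0.06 and no longer passed (adjusted exact permutation p = 0.0656). The outer fill, lower at gene bodies in WT, was higher by 0.0326 in BM, in 4 of 6 libraries. That BM difference did not pass on its own (exact sign permutation p = 0.219, adjusted p = 0.35). The change from WT to BM of 0.0568 (SE 0.0155) passed (exact permutation p = 0.0023, adjusted p = 0.00922), and was between 0.0490 and 0.0618 when each WT series was left out. The change in shoulder spacing was 28.75 bp (SE 10.5, exact permutation p = 0.0194, adjusted p = 0.0345), and it no longer passed without WT series 11, 25 or 26. The contrast in centre fill with intergenic peaks changed by 0.00643 and did not pass (SE 0.0198, exact permutation p = 0.733). Mean centre fill went from 0.521 in WT to 0.647 in BM at intergenic peaks, and from 0.467 to 0.480 at TSS peaks. Against TSS peaks, the contrast in centre fill went from 0.0260 in WT to 0.146 in BM. This change of 0.120 (SE 0.0243) had an exact permutation p of 6.4e-05 (adjusted p = 0.00102), and it was between 0.115 and 0.130 when each WT series was left out, passing each time. Window and flank signal against TSS peaks changed by 0.11 and 0.09 on the log2 scale (adjusted exact permutation p = 0.0345 and 0.0324). Without series 11, 12 or 25 the former no longer passed, nor did the latter without 11 or 25. The log2 enrichment against TSS peaks changed by -0.15 in BM (SE 0.06, exact permutation p = 0.0188, adjusted p = 0.0345), which no longer passed without WT series 11 or 25. Shoulder spacing, outer fill and side ratio against TSS peaks did not pass this test (exact permutation p from 0.465 to 0.675).

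Within the peak list, gene-body peaks spread over all ranks. The list number, which runs from 1 to 3217 and whose basis is not given in the sources used here, was taken as the rank. Gene-body peaks made up 49 of the first 100 peaks (49.0%, exact 95% binomial interval 38.9 to 59.2%), 242 of the peaks from rank 1001 to 1500 (48.4%, interval 43.9 to 52.9%) and 353 of the peaks from rank 2501 to 3217 (49.2%, interval 45.5 to 53.0%). Over the 7 bins of the list it ran from 48.4% to 54.2%, while that of TSS peaks went from 22% in the first 100 to 15.3% in the last bin. These intervals cover counting error only. Peak widths fell along the list, from a median of 460 bp over the gene-body peaks of the first 100 ranks to 369 bp for ranks 101 to 500 and 239 bp for ranks 2501 to 3217. Across the 1623 gene-body peaks Spearman's rho of width with rank was -0.517, a description across peaks of 1 list.

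By width, intron-labelled and other gene-body peaks were nearly alike. Intron-labelled peaks had a median width of 309 bp (quartiles 250 and 379 bp, from 100 to 679 bp). The other peaks had a median of 310 bp (quartiles 259 and 389 bp, from 140 to 579 bp). Their relation to rank was also similar, with Spearman's rho of -0.505 over 1412 intron-labelled and -0.597 over 211 other peaks.

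By rank, the other gene-body peaks stood somewhat earlier in the list, at a median of 1453 (quartiles 802 and 2282) against 1641 (quartiles 801 and 2404) for the intron-labelled. The first quartiles were nearly equal, so the gap lay beyond them, at the median and the third quartile. From rank 1001 to 1500 the other peaks were 43 of 242 gene-body peaks (17.8%, exact interval 13.2 to 23.2%), which was their highest share. In the remaining bins it ran from 11.3% to 14.3%, and the intervals of all bins overlapped. With 1 list and no replicate these differences were not tested.

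By spacing, the labels were again close. The median distance between peak centres to the nearest peak of any class was 42215 bp for intron-labelled and 44310 bp for other gene-body peaks. A neighbour within 10 kb was found for 447 intron-labelled peaks (31.7%, exact interval 29.2 to 34.2%) and 66 other peaks (31.3%, exact interval 25.1 to 38.0%). Over all peaks the share was 30.2%. Windows of 3 kb overlapped those of another peak of any class for 279 (19.8%) and 40 (19.0%), against 19.6% of all peaks. Where both peaks lie in gene bodies, part of the averaged signal is counted for more than 1 peak.

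The labels of neighbours did differ. Of the 279 intron-labelled peaks with an overlapping window, the nearest peak was intron-labelled for 247 (88.5%), while 43.9% of all peaks carry that label. Of the 40 other peaks with an overlapping window, the nearest was of the same label for 25 (62.5%), while 6.56% of all peaks are. TSS peaks were nearest for 25 and 6 of them, and peaks that are nearest to each other count once each. The shares over all peaks take no account of how close peaks lie, so they are not a matched baseline, and no test was run. Counting gene-body neighbours only, the median distance was 81040 bp for intron-labelled and 116245 bp for other peaks.

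**Figure D5:**
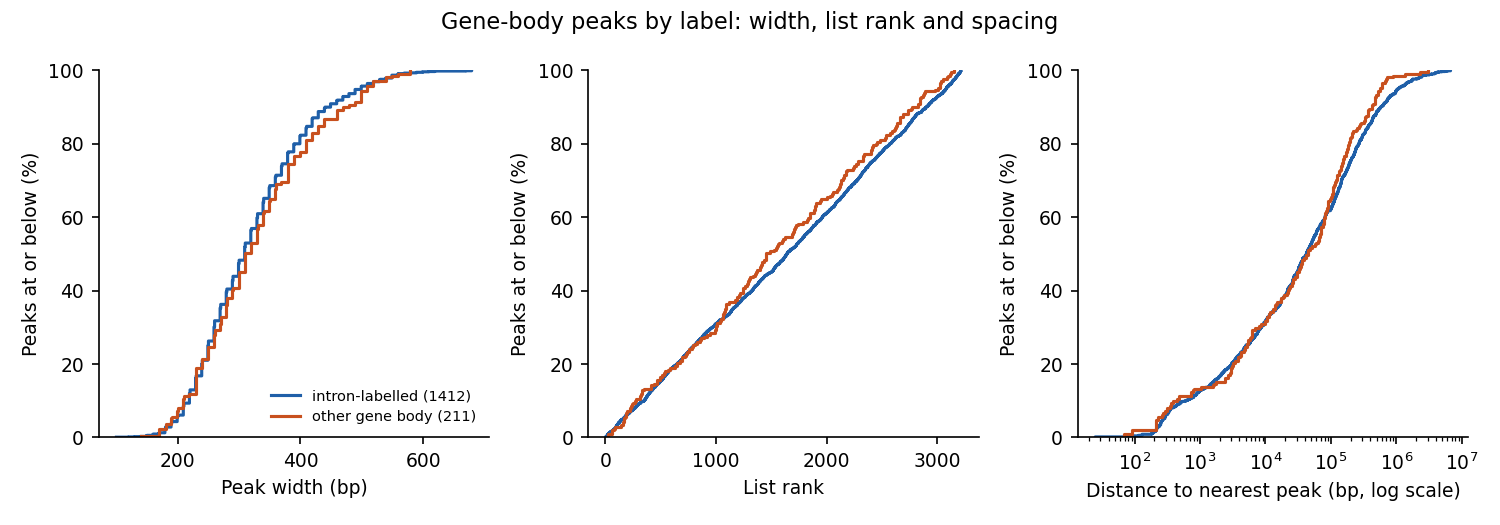
Cumulative share of peaks in percent (y) by peak width in bp, list rank, and distance between centres to the nearest peak in bp on a log axis (x, 3 panels), for 1412 intron-labelled (blue) and 211 other gene-body peaks (orange). The curves lie close together in width and spacing, and the other peaks run ahead in the middle of the list, with medians of 1453 and 1641.

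The peaks at the top of the list show this variety, with positions in mm9. The best-ranked gene-body peak, rank 5, is the intron-labelled chr7:52962811-52963430, which is 619 bp wide and has another intron-labelled peak 1655 bp away. Rank 9 is chr2:92263791-92264240, 449 bp wide, with an intron-labelled neighbour at 1935 bp. Ranks 10 and 11, chr11:98635071-98635331 and chr11:98635311-98635760, are a pair of overlapping peaks whose centres are 334.5 bp apart. Rank 12, chr7:56607161-56607840, is the widest gene-body peak at 679 bp and stands alone, with its nearest neighbour 41930.5 bp away.

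Among the peaks without the intron label, the best-ranked is rank 20, chr19:23210011-23210590, which is 579 bp wide. It lies in a run of 4 gene-body peaks with overlapping windows, from 23209351 to 23211381, and its nearest neighbour is intron-labelled at 790 bp. Rank 22 is chr17:8541841-8542260, 419 bp wide, and rank 59 is chr9:107577311-107577730, also 419 bp wide. Rank 86, chr9:119841511-119842090, shares the greatest width of 579 bp. The narrowest of this label, chr9:107577181-107577321 at 140 bp, has rank 3023 and its centre lies 210 bp from that of another peak of the label.

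Most gene-body peaks were single. Linking gene-body peaks with overlapping windows gave 1336 single peaks, 105 pairs, 16 runs of 3, 6 runs of 4 and 1 run of 5. The run of 5 spans 2780 bp on chromosome 9 from 43891521 to 43894301 and holds the narrowest intron-labelled peak, chr9:43893871-43893971, which is 100 bp wide at rank 3210. The closest pair of centres, 25 bp apart, is chr10:74975411-74975890 and chr10:74975481-74975870 at ranks 702 and 720. Here the second peak lies wholly inside the first. In all, 44 gene-body peaks (2.71%) overlapped another peak and 4 lay inside one, against 128 (3.98%) and 11 of all 3217 peaks. Neighbouring entries of the list are thus not always separate sites.

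The share of peaks in gene bodies differed by chromosome. It was 63.7% on chromosome 14 (72 of 113 peaks, exact interval 54.1 to 72.6%) and 61.3% on chromosome 4 (141 of 230, interval 54.7 to 67.6%). On chromosome 11 it was 40.6% (101 of 249, interval 34.4 to 46.9%), and on the X chromosome 4 of 10 peaks were in gene bodies. These are the extremes of 20 chromosomes, named after their values were seen, and were not tested.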

How the data were processed

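Per the submitters' processing notes, CASAVA 1.7 and Bowtie (version not given) were used with mm9. H2A.Z signal was deposited by the authors as averages over each peak set, in 299 positions, and the row names say that duplicate reads were removed. The sources used here do not give the authors' scaling or the read depth. A step of 10 bp was inferred from the window. BM series 8 (6 samples) was not analysed here.

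The members and lists were chosen with earlier results of these data known. The 8 measures per profile were computed in Python 3.11.15 (numpy 2.4.6, scipy 1.17.1, pandas 2.3.3, matplotlib 3.10.9). Maxima were sought from 100 to 300 bp after a running mean of 5 positions. Genotypes were compared by exact permutation within time (15625 assignments, 729 in the first set), WT rhythms by 100000 permutations of time and BM rhythms by all 720 orders. Contrasts of peak sets were compared by permutation of signs and adjusted over 16 comparisons. Benjamini-Hochberg adjustment covered 32 tests (8 measures, 4 peak sets). Positions were tested with limma 3.58.1 in R 4.3.3 on log2 signal with no pseudocount, adjusted over 1196 positions, at a threshold of 0.05. The scripts were tested on simulated data. Peaks named are the 5 best-ranked intron-labelled and 3 best-ranked other peaks, the widest and narrowest of each label and the closest pair. No peak was given a gene name, since no mm9 annotation was used here. Alternatives covered flank, shoulder and centre ranges, smoothing, scale, sets of samples and left-out libraries. Leaving out WT series 26 at ZT14 was chosen after its flank was seen.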

Additional observations from a re-analysis of the deposited data

Results flagged for a closer look

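Of 48 groups of 4 WT libraries at 1 time, 2 held a value far from the others, where chance gives about 1 in 20 groups, or 2.4 here. Centre fill at gene bodies in WT at ZT2 was 0.525 in series 12, and the other 3 libraries lay between 0.448 and 0.458. The log2 ratio of left to right shoulder in WT at ZT10 was 0.0769 in series 25, while the others lay between -0.0233 and -0.0106. Both libraries were kept in each result.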

How the results depend on the processing

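Lower window signal and enrichment and higher centre fill in BM kept direction and call under each alternative tried with libraries as the unit. None of them passed once every series was averaged to 1 value (p = 0.2 each by exact permutation). A test on 5 such values cannot go below 0.2, so it decides nothing about these measures. With 1 library or WT series left out, their differences ranged from -0.41 to -0.29 (log2), from -0.53 to -0.39 (log2) and from 0.107 to 0.148. Flank differences ranged from -0.17 to -0.11 (log2), and passed without series 11 (-0.1726) and without WT series 26 at ZT14 (-0.1167). The side ratio difference ranged from -0.00505 to 0.0173 and turned its sign in 6 of 11 such fits (-0.00355, -0.00374, -0.00505, -0.00351, -0.00304 and -0.00142), never passing. Shoulder spacing (3.5 to 14 bp) was -2.08 bp with a running mean of 9 positions and 14.58 bp with none. Dip width ranged from -0.236 to 6.69 bp.

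The WT rhythm of centre fill had amplitudes from 0.0632 to 0.0814 with a series or WT series 26 at ZT14 left out. It failed adjustment without series 11 (0.0636) or 12 (0.0632), in the first set of samples (0.101) and in the second (0.0597). Fewer libraries enter each of these fits.

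Series numbers were not taken to pair the libraries, since not every pair of times correlated. Over 60 pairs of times the deviations of same-numbered libraries correlated at a median of 0.36 and as low as -0.716, with 37 over 0.1, and 10 of 24 libraries correlated best with their own number. In enrichment, series 25 was the highest WT series at 6 of 6 times. With the replicate block the WT enrichment amplitude of 0.165 passed (adjusted permutation p = 0.0356), and 83 positions relative to the flank passed against 0 without it. The block changed no other call.

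In the contrasts with other sets, BM minus WT at gene bodies against intergenic peaks in centre fill ranged from -0.00147 (without series 26) to 0.0139 (without series 12). Of 160 alternatives for these contrasts 13 ended a call, each by leaving out a WT series. Genotype contrasts with TSS peaks then ranged from 0.1004 to 0.124 in window signal, from 0.0789 to 0.109 in flank and from -0.18 to -0.12 in enrichment. The WT centre fill contrast with TSS peaks ranged from 0.0159 to 0.0307. Read depth is unknown, 1 BM series limits each genotype comparison, and an averaged profile cannot show whether all peaks or a few carry a difference.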

Other observations

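Among the WT libraries, closer shoulders at gene bodies went with a higher centre fill. The Pearson r was -0.624 over 24 libraries (permutation p = 0.00112, adjusted p = 0.00672 over 12 relations) and Spearman's rho was -0.607 (permutation p = 0.00212, adjusted p = 0.0127). Within the first set of samples r was -0.72 (permutation p = 0.00903, adjusted p = 0.0361, n = 12) and within the second -0.616 (permutation p = 0.0327, adjusted p = 0.0663, n = 12). Without the 2 libraries farthest in spacing r was -0.452. Over the 6 BM libraries r had the other sign, 0.66, and did not pass (exact permutation p = 0.167). Both measures come from the same profile, spacing moves in steps of 10 bp, and the difference between genotypes was not tested. The permutations for the 12 relations did not hold time of day fixed. WT means were 380 bp and 0.424 at ZT6 and 355 bp and 0.545 at ZT14, and a relation within times was not tested.

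Closer shoulders also went with a higher left shoulder in WT. Here r was -0.643 (permutation p = 0.00085, adjusted p = 0.00672) and rho -0.632 (permutation p = 0.00119, adjusted p = 0.0127), and r was -0.623 without the 2 farthest libraries. It was -0.639 in the first set and -0.609 in the second (adjusted permutation p = 0.0663 each, n = 12), so the relation had the same sign but did not pass within either set. In BM the r of -0.294 became 0.535 without the 2 farthest libraries (exact permutation p = 0.572 over 6). Spacing with enrichment gave r = -0.424 in WT (adjusted permutation p = 0.0663). In BM that r was -0.855 (exact permutation p = 0.0444, adjusted p = 0.0667) and 0.644 without the 2 farthest libraries, so it rests on those.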
